A study of Mus musculus with 24 samples.

Results

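The Skint genes encode a family of butyrophilin-like transmembrane proteins of the immunoglobulin superfamily that keratinocytes of the mouse make. The rule for the genes described here was membership of a named list of the family, which held 10 genes (Skint1, Skint2, Skint3, Skint4, Skint5, Skint6, Skint7, Skint9, Skint10 and Skint11) of 54087 gene symbols in the count table. The list was drawn up because Skint11 was known to be higher in KO skin of these same samples, so the values of Skint11 in KO skin against WT or HET skin are given as a description, with no test. All 10 genes passed the filter on low counts, which kept 17094 genes. Skint8, a relative outside the list, is given only where it bears on sequence or position.

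The samples were RNA of dorsal skin from mouse embryos at stage E18.5, late in gestation, flash frozen whole, from 3 genotypes: WT (Dsg1+/+), HET (Dsg1+/-) and KO (Dsg1-/-). All embryos came from a C57BL/6 background. The KO allele lacks the tandem Dsg1c, Dsg1a and Dsg1b genes on chromosome 18, which encode the desmosomal cadherin desmoglein 1, and the deletion was made with CRISPR/Cas9 in the germ line, so every tissue carried it. KO animals die within hours of birth and their stratum corneum separates from the tissue, so the cell layers left in a KO sample may not be those of a control sample. The labels hold 24 libraries, 8 per genotype, and libraries that shared a title number and genotype were summed to 15 columns, 5 per genotype, with 15.3 M to 33.7 M counts each. The labels do not say that a number stands for 1 embryo, so p-values measure the spread between these columns. Values are CPM, counts per 1 M counts of the normalized column total, and a replicate number is only a name.

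The Dsg1 genes summed to 806 ± 112 CPM in WT, 422 ± 51.5 in HET and 0.548 ± 0.343 in KO columns (SD, n = 5), which fits the genotype labels. The 2 libraries of WT replicate 2 differed in summed Y-linked genes (325 CPM in one, 0.154 in the other) and in Xist (0.264 and 564 CPM), so they did not come from 1 animal. Their Skint genes differed too, by a median of 0.48 on the log2 scale, against 0.06 to 0.10 between the paired libraries of the other 8 numbers. Without this column none of the 9 genes other than Skint11 passed the adjusted p in KO against WT (edgeR adjusted p of 0.204 to 0.928) or KO against HET (0.148 to 0.966). The WT level of the family was then 519 ± 48.9 CPM (SD, n = 4), 8 of 10 genes kept their place in the WT order of levels, and the correlations between members moved by at most 0.086.

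As background, Skint1 is the founding member: it is needed in the fetal thymus for the maturation of the first wave of gamma-delta T cells, those with a Vgamma5 Vdelta1 receptor, which then settle in the epidermis before birth as dendritic epidermal T cells. Those cells later sit between keratinocytes, sense stressed epithelium and release growth factors at wounds. Skint3 and Skint9 have been linked to the exchange between these T cells and epithelium at wounds. For most of the other members no separate function is settled, and the genes are known mainly as products of thymic epithelium and skin keratinocytes.

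The genes lie next to each other on chromosome 4. In GENCODE vM21 (GRCm38) the order is Skint8, Skint7, Skint1, Skint4, Skint3, Skint9, Skint2, Skint10, Skint6, Skint5 and Skint11, with Skint9, Skint10, Skint6 and Skint5 on the minus strand. The build behind the deposited counts is uncertain, so no coordinates are given for the genes as counted; the upstream sequences shown further on carry the coordinates of their own RefSeq build. Coding sequences, compared by local alignment, fell into sets. Skint9, Skint10 and Skint11 formed one: over the bases paired in the alignment, gaps left out, Skint9 and Skint10 were 87.0% identical (947 bases), Skint10 and Skint11 83.0% (962) and Skint9 and Skint11 83.1% (940). Skint11 aligned with each of the other 8 genes over 60 to 234 bases only. Skint7 and Skint8 formed a pair with 91.5% identity over 1181 bases. Skint1, Skint2, Skint3, Skint4, Skint5 and Skint6 were closer to each other, with Skint2 and Skint3 85.2% identical over 1010 bases. Skint5 and Skint6, by far the longest, were 89.4% identical over 3713 paired bases, with 673 further alignment columns opposite a gap.

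Near-identical stretches were few, which bears on how reads could be split between copies. Of all 50-base windows of the annotated transcripts, 6.83% of those of Skint7 recurred in another Skint gene (Skint8), 4.64% of those of Skint6 in Skint5 and 3.97% of those of Skint5 in Skint6. For Skint1, Skint9 and Skint10 the share was 0%, also in any other gene. Skint11 shared no window with another Skint gene, and 4.51% of its windows recurred in another gene, chiefly the pseudogene Gm12813. The antisense gene Gm12823 overlaps exons of Skint6, so the counts of Skint6 could hold reads of both if strand was not used in counting.

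Levels of the genes were compared per kilobase of exonic length. In WT skin Skint9 was highest, at 104 ± 31.2 CPM per kilobase (SD, n = 5), followed by Skint3 at 28.9 ± 4.80 and Skint6 at 22.7 ± 2.38. Skint10 stood at 15.2 ± 1.79, Skint4 at 11.3 ± 2.65 and Skint2 at 10.9 ± 2.52 CPM per kilobase. Skint1, the member with the known role in T cell maturation, had a level of 5.29 ± 0.377 CPM per kilobase. Skint7 followed at 3.66 ± 1.05 and Skint5 at 3.58 ± 0.873, and Skint11 was lowest of the 10 at 0.396 ± 0.122. Neighbours in this order whose means lay within their joint SD were Skint3 and Skint6, Skint10 and Skint4, Skint4 and Skint2, and Skint7 and Skint5. In KO skin Skint11 stood on this scale at 1.55 ± 0.796 CPM per kilobase and stayed lowest of the 10, below Skint7 at 1.95 ± 0.657. With coding in place of exonic length, 7 of 10 genes kept their place in the WT order, and Skint9 and Skint3 stayed first.

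**Figure D1:**
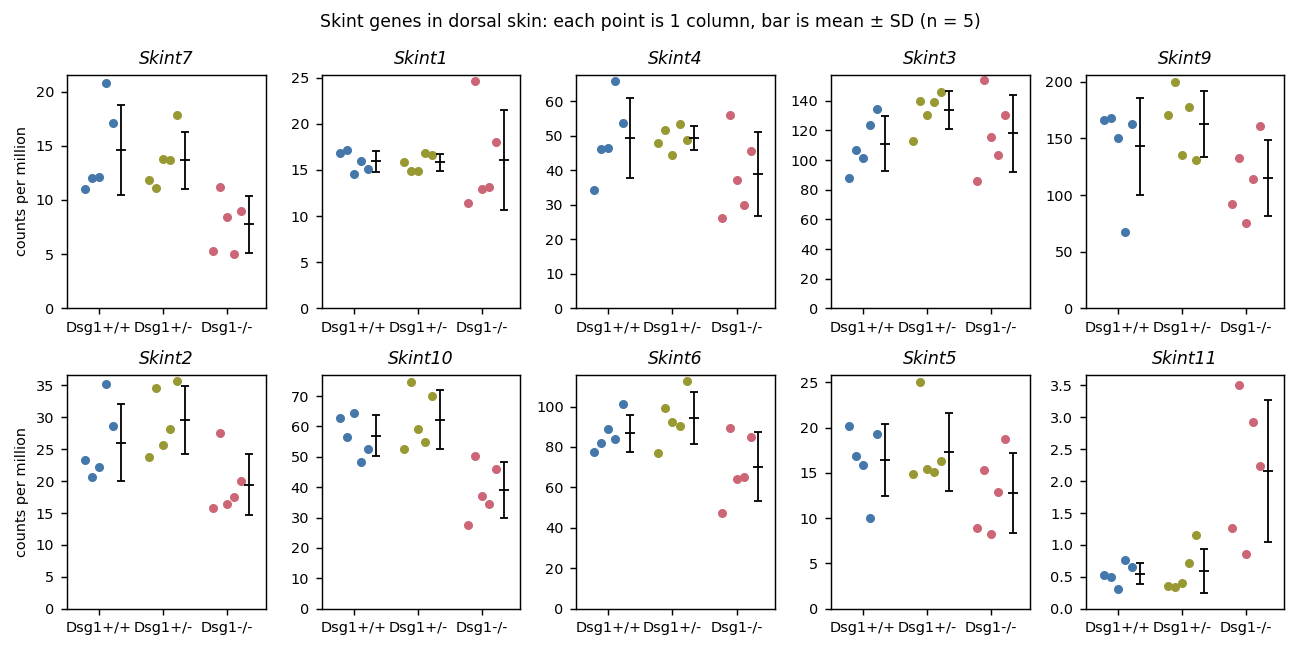
Level in CPM (y axis, linear from 0, a scale of its own in each panel) of the 10 Skint genes in the 5 columns of each genotype (x axis), in chromosome order; points are columns, the black mark and bar are mean and SD. Skint11 lies between 0.316 and 1.15 CPM in the 10 control columns and between 0.851 and 3.50 in the KO columns, whereas Skint7 and Skint10 lie lower in most KO columns.

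Skint11 was present at low counts, 9 to 24 reads in each control column and 20 to 95 in each KO column. In WT columns it was 0.534, 0.493, 0.316, 0.764 and 0.655 CPM, and in HET columns 0.358, 0.335, 0.405, 0.716 and 1.15 CPM. In KO columns it was 1.26, 3.50, 0.851, 2.93 and 2.24 CPM. Every KO column lay above every WT column, with KO replicate 3 (0.851) just over WT replicate 4 (0.764), and KO replicate 3 lay below HET replicate 5 (1.15). The group means were 0.552 ± 0.170, 0.592 ± 0.347 and 2.16 ± 1.11 CPM (SD, n = 5 each), a fitted 3.91-fold difference between KO and WT and 3.74-fold between KO and HET.

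By the form of their titles the libraries split into a first series of 9 and a second of 15, and the size of the Skint11 difference can be read within each. On the log2 scale the KO against WT difference was 1.97 over all columns, 2.14 in the second series alone and 1.598 in the first. Without WT replicate 2 it was 1.93. In the first and then the second series, KO replicate 2 gave 3.70 and 3.25 CPM and KO replicate 3 gave 0.902 and 0.774. KO replicate 1 gave 0.902 and 1.67 CPM, so it matched replicate 3 in the first series only. The gap between KO replicates 2 and 3 thus recurred in separate libraries of the same number, while the place of replicate 1 did not. In control libraries taken singly Skint11 had as few as 1 read. Between HET and WT, a contrast that did not choose the gene, Skint11 differed by 0.06 on the log2 scale (95% interval -0.89 to 1.02; edgeR adjusted p = 0.9998), which at these counts leaves room for a difference of up to about 2-fold in either direction.

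Skint11 and its closest relatives by sequence did not move together between genotypes. The ratio of Skint10 to Skint11 counts was 63.2 to 203 in WT, 61.1 to 223 in HET and 11.7 to 43.8 in KO columns. Skint11 was chosen for its higher KO level, so a lower ratio and a higher Skint11 share in KO follow in part from that choice. Both are given as a description and are no support for a difference. Skint11 made up 0.107% ± 0.0365 of all Skint counts in WT, 0.102% ± 0.0570 in HET and 0.478% ± 0.201 in KO columns (SD, n = 5). Skint9, the third of the set, made up 27.2% ± 7.57, 28.1% ± 4.25 and 26.2% ± 4.24.

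**Figure D2:**
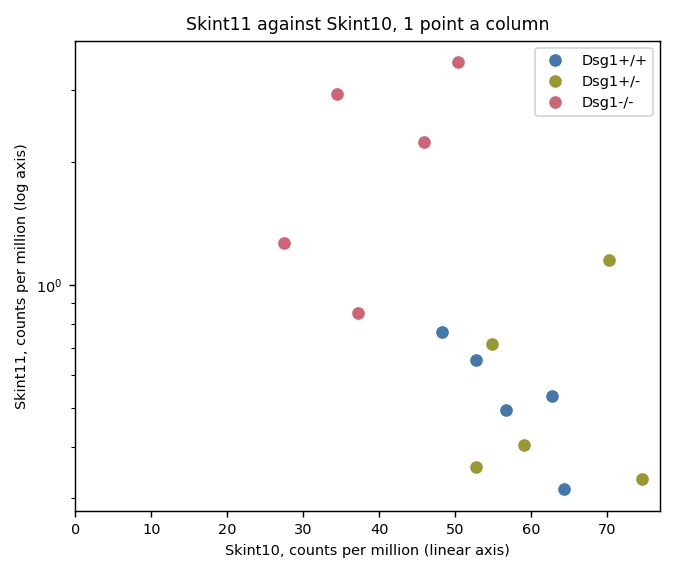
Skint11 (y axis, CPM, log scale) against Skint10 (x axis, CPM, linear from 0), 1 point for each of the 15 columns, coloured by genotype. The KO points lie to the upper left of the controls: Skint10 between 27.5 and 50.4 CPM and Skint11 between 0.851 and 3.50, against 48.3 to 74.6 and 0.316 to 1.15 in the 10 control columns.

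The upstream sequences of Skint11, Skint10 and Skint9 are shown because these 3 genes are the closest relatives and Skint11 had the opposite direction to the other members of its set. They are the 250 bases before the annotated start of each gene, from RefSeq on GRCm38.p6, written 5′ to 3′ on the strand of the gene: chr4:114163134-114163383, plus strand, for Skint11, chr4:112774862-112775111, minus strand, for Skint10 and chr4:112433986-112434235, minus strand, for Skint9. Capitals mark the longest run that Skint10 and Skint11 share exactly (20 bases) and, nearer the start, a match to TGANTCA in Skint11 with the 7 bases of Skint10 aligned to it.
Skint11: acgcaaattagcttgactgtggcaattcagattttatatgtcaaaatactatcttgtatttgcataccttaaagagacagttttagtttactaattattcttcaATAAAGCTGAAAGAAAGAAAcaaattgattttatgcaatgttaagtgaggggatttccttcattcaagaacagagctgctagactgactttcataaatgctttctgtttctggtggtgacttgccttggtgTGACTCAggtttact
Skint10: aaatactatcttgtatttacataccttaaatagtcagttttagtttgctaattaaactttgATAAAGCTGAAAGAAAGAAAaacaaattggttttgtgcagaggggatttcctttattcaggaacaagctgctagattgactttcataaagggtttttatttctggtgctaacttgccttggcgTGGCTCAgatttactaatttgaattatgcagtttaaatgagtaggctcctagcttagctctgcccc
Skint9: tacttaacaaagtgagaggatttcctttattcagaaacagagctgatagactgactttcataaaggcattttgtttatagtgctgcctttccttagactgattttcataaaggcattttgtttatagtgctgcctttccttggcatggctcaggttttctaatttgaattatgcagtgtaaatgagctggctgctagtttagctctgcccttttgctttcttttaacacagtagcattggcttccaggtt

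All 10 genes matched the RefSeq promoter table. The upstream sequences of Skint10 and Skint11 aligned over 197 paired bases at 88.8% identity, those of Skint9 and Skint10 over 117 at 84.6%, and those of Skint9 and Skint11 over 85 at 84.7%. Skint5 and Skint6 had the longest alignment of the cluster (248 bases, 89.5%), and 6 of 55 pairs of the 11 Skint genes aligned over at least 100 bases. The 3 motifs, chosen after the values of the genes were seen, were searched on both strands: TGANTCA (the AP-1 consensus), TTCNNNGAA (STAT) and TATAAA; they were counted independently, with overlap between them allowed. TGANTCA was found in 1 of the 10 genes, Skint11, with its first base 15 before the start, and in 6.75% of all 32851 promoters of this length. In Skint10 the aligned bases, TGGCTCA, differ by A3G, counted from 1 at the first base of the match, and begin 66 before its annotated start. The same letters also stand in the Skint9 sequence, unmarked because they fell outside its alignment with Skint11. Distances to the start depend on where each start is annotated. TATAAA was found in 5 of the 10 genes and 12.4% of promoters, and TTCNNNGAA in 0 of the 10 and 7.02%. A match describes letters only; no binding was measured.

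Skint11 chose the list, so it is left out of the counts that follow. Of the 9 other members, 7 had a fitted KO level below WT, and 1 of them, Skint7, passed the adjusted p. The median log2 fold change of the 9 was -0.34, against -0.01 over all 17094 genes, 51.4% of which were lower. A gene counted as called if its adjusted p reached 0.1 and its difference 2-fold, and 0 of the 9 members were called, against 0.322% of all genes. By the adjusted p alone 1 of 9 passed, against 1.15% of all genes, and at an unadjusted p under 0.05 there were 3 (Skint2, Skint7 and Skint10), against 19.3%. Groups did not overlap for 0 of the 9, against 3.37% of all genes.

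Skint7 was lower in KO skin. In WT columns it was 11.01, 12.1, 12.1, 20.8 and 17.1 CPM, in HET columns 11.9, 11.1, 13.8, 13.7 and 17.9, and in KO columns 5.26, 11.2, 8.43, 4.99 and 8.95. KO replicate 2 (11.2) lay just above the lowest WT column (11.01) and the lowest HET column (11.1), and the other 4 KO columns lay below all controls. The fitted KO level was 53.2% of WT (log2 fold change -0.91 ± 0.23 SE, edgeR adjusted p = 0.0981), which did not reach the 2-fold limit. The adjusted p lay near its limit: leaving out WT replicate 1, 2, 3 or 5, HET replicate 1, 2, 3 or 5, or KO replicate 1 or 4 moved the adjusted p to between 0.116 and 0.222. The log2 fold change stayed between -1.09 and -0.75 throughout these omissions, and was -0.97 (adjusted p = 0.204) without WT replicate 2. Skint7 also missed the limit with the Y-linked sum (adjusted p = 0.144) or the number of libraries (0.116) as a covariate, with only WT and KO columns fitted (0.198), with no filter on low counts (0.132) and in the first series alone (0.551). Against HET the KO difference of Skint7 was -0.81 (adjusted p = 0.156).

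Skint7 was also lower relative to members that are no close copies. Its counts were 26.02 to 32.2% of those of Skint4 in WT columns, 21.5 to 36.6% in HET columns and 16.7 to 22.7% in KO columns. The KO range lay below that of WT and overlapped that of HET. Relative to Skint1, the next gene on the chromosome, they were 65.4 to 130%, 74.8 to 107% and 37.9 to 64.9%. There the KO range lay below both others. These ratios reuse the Skint7 counts, so they are no separate support. Skint8, the close copy of Skint7, had a log2 fold change of -0.51 (adjusted p = 0.239), from 3.95 ± 1.38 CPM in WT to 2.78 ± 0.675 in KO columns (SD, n = 5).

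Skint10 was the member with the clearest gap to HET. It was 62.7, 56.7, 64.3, 48.3 and 52.7 CPM in WT columns and 52.7, 74.6, 59.1, 54.8 and 70.2 in HET columns. In KO columns it was 27.5, 50.4, 37.2, 34.4 and 45.8 CPM. Every KO column lay below every HET column, and KO replicate 2 (50.4) lay above 1 WT column, WT replicate 4 (48.3). The fitted KO level was 62.7% of HET (log2 fold change -0.67 ± 0.15 SE, edgeR adjusted p = 0.0993) and 68.6% of WT (-0.54 ± 0.15, adjusted p = 0.104). The adjusted p against HET also lay near its limit: leaving out WT replicate 1, 2, 3 or 5, HET replicate 1, 2, 3 or 5, or KO replicate 1 or 4 raised the adjusted p to between 0.120 and 0.235. It also missed the limit with the libraries of WT replicate 2 kept apart (0.102), with RLE factors (0.109), with a mean of at least 50 counts (0.103), with only HET and KO columns fitted (0.218), with the Y-linked sum (0.130), the keratinocyte sum (0.125) or the number of libraries (0.125) as a covariate, and in the first series alone (0.256).

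The other members did not pass the test in KO against WT. Skint2 was at 74.9% of WT (log2 fold change -0.42, edgeR adjusted p = 0.217), with 20.6 to 35.3 CPM in WT and 15.8 to 27.5 in KO columns. Skint5, Skint4, Skint9 and Skint6 had values of -0.36, -0.34, -0.31 and -0.30, with adjusted p of 0.268 to 0.474. Skint3 was nearly level at 0.09 (95% interval -0.21 to 0.39) and Skint1 at 0.01 (-0.34 to 0.36), and their sign changed with the setting. Skint1, the gene with the established role in epidermal T cell maturation, was 15.9 ± 1.14 CPM in WT, 15.8 ± 0.924 in HET and 16.0 ± 5.41 in KO columns. The KO columns of Skint1 spread from 11.4 to 24.6 CPM, while the 10 control columns lay between 14.5 and 17.2, so level means went with a wider KO spread on both sides.

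**Figure D3:**
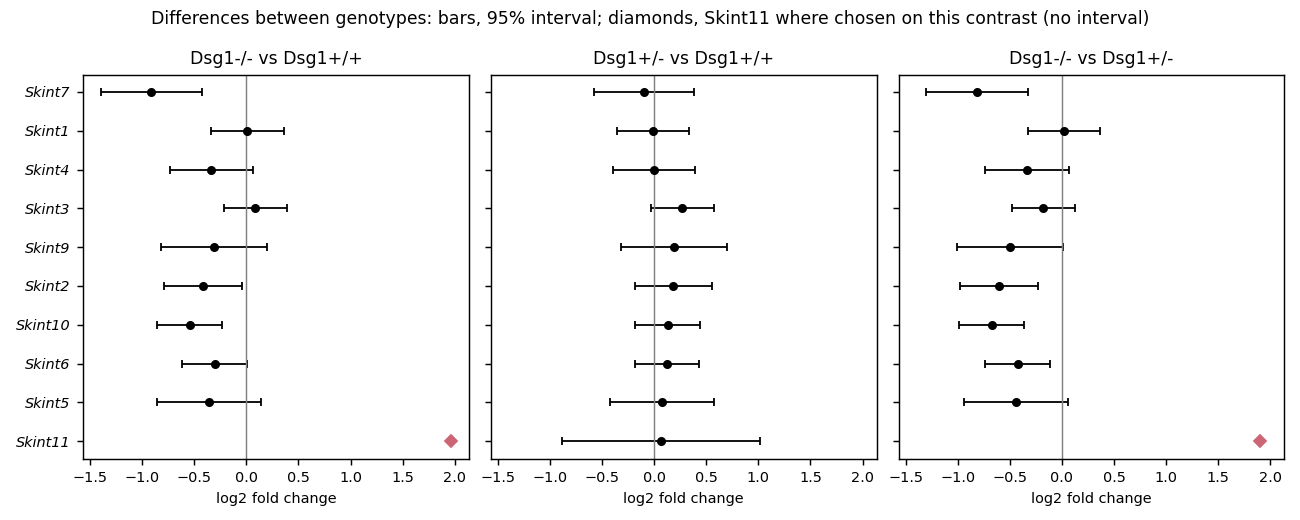
Fitted log2 fold change (x axis) of each Skint gene (y axis, chromosome order) in the 3 comparisons of genotypes, with bars for the 95% interval; diamonds give Skint11 without an interval where the gene was chosen on that comparison. Skint11 stands alone on the right at 1.97 and 1.90, Skint7 and Skint10 lie left of 0 in both comparisons with KO, and every interval in the HET against WT panel includes 0.

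KO against HET uses the same KO columns, so it is no independent support, and Skint11 is again left out of the counts because it chose the list. Of the 9 other members 8 had a fitted KO level below HET, and the median log2 fold change was -0.44, against -0.0040 over all genes. None was called (0 of 9, against 0.181% of all genes), 1 passed the adjusted p alone (Skint10, against 0.333%), and 4 passed an unadjusted p under 0.05 (Skint2, Skint6, Skint7 and Skint10, against 16%). The groups of 1 of the 9, Skint10, did not overlap, against 2.25% of all genes. Beside Skint7, given above, Skint2 had a log2 fold change of -0.60 (adjusted p = 0.159) and Skint6 of -0.43 (adjusted p = 0.196).

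Loss of 1 copy of the Dsg1 cluster left no detectable mark on the family. HET against WT gave 0 called members, and edgeR called 0% of all genes, as did DESeq2 and limma-voom. At an unadjusted p under 0.05 there were 0 of 10 members, against 1.58% of genes, and 0 members whose groups did not overlap, against 0.374%. The members' log2 fold changes ran from -0.10 (Skint7) to 0.27 (Skint3, 95% interval -0.03 to 0.57). The intervals of the 9 members other than Skint11 reached no further than -0.58 and 0.70, so larger differences lay outside them.

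Summed over the 10 genes, the family stood at 520 ± 42.5 CPM in WT, 579 ± 51.3 in HET and 440 ± 105 in KO columns (SD, n = 5). KO columns thus held 84.5% of the WT sum and 75.9% of the HET sum, and HET columns 111% of WT. KO replicates 2 and 5, at 565 and 536 CPM, lay within the control range of 471 to 651, and KO replicates 1, 3 and 4, at 322, 377 and 398, lay below it. The members were chosen with results known, so the sum was not tested.

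The summed level of keratinocyte genes was set beside these values. A list of 20 epidermal keratinocyte genes, among them Krt5, Krt1 and Krt10, summed to 79111 ± 9490 CPM in WT, 77424 ± 8182 in HET and 93728 ± 13733 in KO columns. Most of the sum was Krt10 (32655 CPM in WT, 38188 in KO) and Krt1 (24702 and 30899), whereas Krt5 stood at 2977 and 3039. The sum thus mainly follows Krt10 and Krt1 and is no even measure of all keratinocytes. KO was higher than HET by 0.27 on the log2 scale (exact permutation test, two-sided, p = 0.0238, adjusted p = 0.0714 over 3 comparisons, n = 5 each) and than WT by 0.24 (exact p = 0.0794, adjusted p = 0.119), where 0.00794 is the smallest p the design allows. The call against HET was lost (adjusted exact p of 0.119 to 0.190) without HET replicate 1, 3, 4 or 5 or KO replicate 1, 2 or 4, and against WT the adjusted exact p was 0.0357 without WT replicate 4 and 0.0833 without KO replicate 5. Relative to this sum the Skint sum was 0.665% ± 0.0908 in WT, 0.749% ± 0.0243 in HET and 0.471% ± 0.105 in KO columns. On that scale the KO columns (0.359 to 0.643%) all lay below the HET columns (0.718 to 0.784%) and overlapped the WT columns (0.513 to 0.736%). With the keratinocyte sum as a covariate, the KO against WT difference of Skint11 was 1.48 and that of Skint7 -1.18 (edgeR adjusted p = 0.0463). Skint2 passed in that fit (-0.75, adjusted p = 0.0222, and -0.99, adjusted p = 0.0081, against HET), Skint7 passed against HET (adjusted p = 0.0914), and Skint10 missed the limit against both (adjusted p = 0.213 against WT and 0.125 against HET). In whole skin, fewer cells of a type and less RNA per cell cannot be told apart. The part of keratinocyte content in these differences was not tested.

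The genes beside the cluster, taken by position alone, gave no call. On the side of Skint8 these were Bend5, Spata6 and Slc5a9, and on the side of Skint11 Trabd2b, Foxd2 and Foxd2os. Their KO against WT log2 fold changes ran from -0.52 (Foxd2) to 0.30 (Slc5a9), with edgeR adjusted p of 0.239 to 0.885. Trabd2b, the first tested gene after Skint11, had a value of -0.10 (adjusted p = 0.750). None of 14 other annotated genes inside the cluster was among the genes tested.

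**Figure D4:**
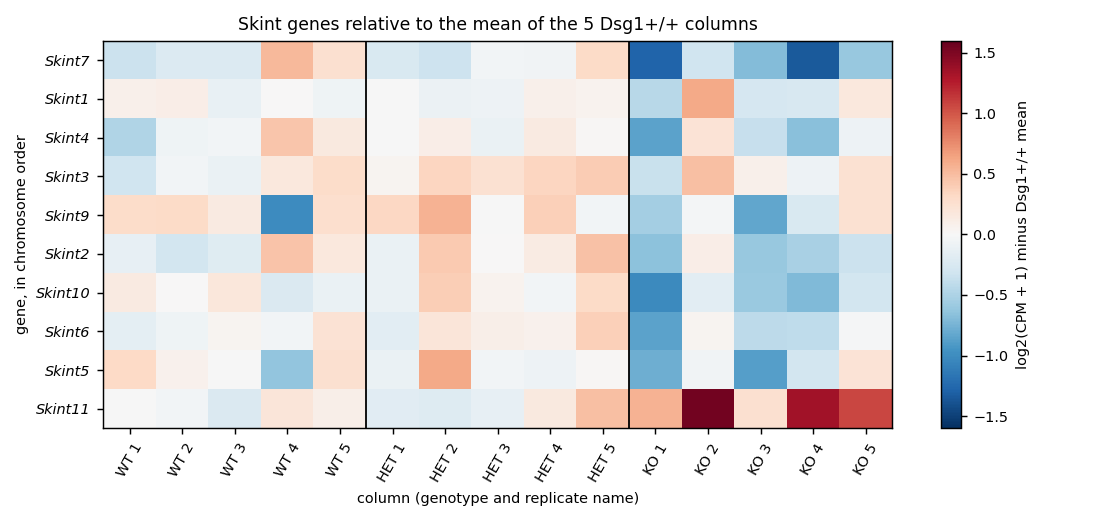
Each Skint gene (y axis, chromosome order) in each of the 15 columns (x axis), coloured by log2(CPM + 1) minus the mean of the 5 WT columns; black lines part the genotypes. The bottom row, Skint11, is above the WT mean in all 5 KO columns, Skint7 is below it in all 5, and WT 4 is low in Skint9 and Skint5 but high in Skint7.

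Columns of one genotype differed from each other in a patterned way. WT replicate 4 had 67.2 CPM of Skint9, against 150 to 168 in the other 4 WT columns, and 10.01 CPM of Skint5, against 15.9 to 20.2. The same column was the highest WT column for Skint7 (20.8), Skint4 (65.7) and Skint2 (35.3 CPM). HET replicate 2 was the highest HET column for Skint9 (200 CPM), Skint5 (25) and Skint10 (74.6). These columns show low and high levels of some members with the opposite or no shift of others.

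To describe this over all columns, genotype means were subtracted from log2(CPM + 1) and the 45 pairs of members were correlated over the 15 columns. Of the 45, 25 had Pearson's r of at least 0.5, 4 were negative, and 14 had an adjusted permutation p of 0.1 or below. Skint3 and Skint4 were closest (r = 0.898, Spearman's rho = 0.921, permutation p adjusted over 45 pairs = 0.00630 and 0.0105, and r = 0.810 without the 2 farthest columns). Skint3 went likewise with Skint6 (r = 0.881) and Skint7 (r = 0.841). A second set held Skint5 with Skint9 (r = 0.874, rho = 0.868, adjusted p = 0.00630 and 0.0105, r = 0.816 without the 2 farthest) and Skint5 with Skint10 (r = 0.716, rho = 0.732, adjusted p = 0.0392 and 0.0306, r = 0.659). The sets were not apart for every pair, since Skint6 and Skint10 had r = 0.783. Skint9 had values from r = 0.311 with Skint6 down to r = -0.314 with Skint7 (for Skint7, rho = -0.204, permutation p = 0.327 and 0.515, adjusted p = 0.420 and 0.610). By order on the chromosome the sets are mixed, since Skint9 lies between Skint3 and Skint2. By strand, Skint5, Skint9 and Skint10 all lie on the minus strand, as does Skint6, while Skint2, Skint3, Skint4 and Skint7 lie on the plus strand. The part of position or strand was not tested. All genes of a column share its library size and skin sample, so pairs are not independent of each other.

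**Figure D5:**
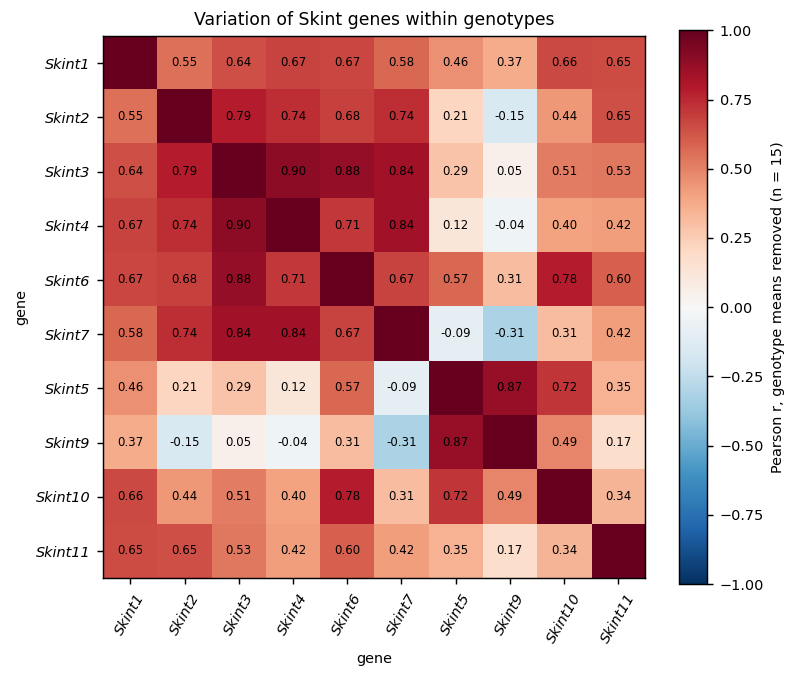
Pearson's r between each pair of Skint genes (both axes) over the 15 columns after the genotype means of log2(CPM + 1) were removed, coloured from -1 to 1 with the value in each square. Skint2, Skint3, Skint4, Skint6 and Skint7 form a block of r from 0.673 to 0.898, Skint5 goes with Skint9 (0.874) and Skint10 (0.716), and Skint11 ranges from 0.172 to 0.652.

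Within genotypes Skint11 had r from 0.172 (Skint9) to 0.652 (Skint1) with the family. Its mean control levels, 0.552 CPM in WT and 0.592 in HET, lay below the 1 CPM added before the log. Differences between control columns are therefore compressed and hold much counting noise, which limits these values. Of its 9 pairs, 1 passed: Skint2 had r = 0.646 and rho = 0.711 (permutation p = 0.0103 and 0.00679, adjusted over 9 pairs 0.0927 and 0.0611), and r = 0.508 without the 2 farthest columns. In the second series alone the value for Skint2 was r = 0.681 with an adjusted permutation p of 0.181. Skint10, its closest relative by upstream sequence, had r = 0.336 with Skint11 (rho = 0.175, permutation p = 0.383 and 0.599, adjusted 0.431 and 0.674), and r = -0.07 without the 2 farthest. The keratinocyte sum, treated in the same way, went with Skint2 (r = 0.815, rho = 0.693, permutation p = 0.00257 and 0.0115, the first adjusted over 10 genes 0.0257), Skint4 (r = 0.689, adjusted permutation p = 0.0392) and Skint3 (r = 0.655, adjusted permutation p = 0.0698). Without the 2 farthest columns r was 0.621, 0.383 and 0.450, so the values for Skint4 and Skint3 rest in large part on those columns, and with Skint9 it had r = -0.138.

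Outside the family, the 5 genes whose log2(CPM + 1) was most like that of Skint11 over the 15 columns, among 17083 genes, were Fosl1 (r = 0.934), Aqp9 (r = 0.924), Cyp3a13 (r = 0.909), Gjb2 (r = 0.903) and Nlrc5 (r = 0.902). These are a subunit of the AP-1 transcription factor, a water and glycerol channel, a cytochrome P450, the gap junction protein connexin 26 and a regulator of MHC class I genes. All 5 had their highest mean in KO columns, for Gjb2 288 CPM against 124 in WT and 123 in HET, and for Fosl1 2.64 against 1.10 and 1.13. Skint11 was chosen for its higher KO level and genotype means were left in here, so this direction follows largely from the choice. With the genotype means removed, the 5 most alike were other genes: Mthfsl (r = 0.900, but 0.432 in the second series alone), Hyal4 (r = 0.889), Neat1 (r = 0.880), Tmprss11f (r = 0.872) and RP23-211P15.6 (r = 0.858). Their mean levels in KO and WT columns were closer, for Hyal4 8.92 and 9.48 CPM and for Neat1 108 and 139. These values describe likeness over 15 columns, all genes of a column share its library size, and the values were picked as the highest of many.

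The epidermal T cells that Skint genes are known for left few reads in these libraries. The receptor and CD3 genes Tcrg-V5, Tcrg-C1, Trdv4, Trdc, Cd3e, Cd3d, Cd3g and Cd247 together gave 54 to 194 counts per column. Tcrg-V5, the variable segment of the epidermal receptor, had 8 counts over all WT columns, 12 over HET and 18 over KO columns, and Trdc had 39, 29 and 58. The sum was 3.78 ± 1.17 CPM in WT, 4.54 ± 1.28 in HET and 4.71 ± 1.56 in KO columns (SD, n = 5). KO differed from WT by 0.25 on the log2(CPM + 1) scale (exact permutation test, two-sided, p = 0.325, adjusted p = 0.512), so no change in this sum was detectable at this depth. Of the wider list of 37 T cell genes 24 were tested, and 0 rose and 0 fell in any comparison; their median KO against WT log2 fold change was 0.02 against -0.01 over all genes. Its most abundant members, Thy1 (156 CPM in WT, 108 in KO, adjusted p = 0.178), Egr3 (67.5 and 104, adjusted p = 0.120), Id3 and Sox13, are also made by other cells of skin.

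A list of genes for signals between keratinocytes and these T cells, in either direction, did not pass the test either. Of its 21 genes 17 were tested and 0 rose or fell in KO against WT, with a median of -0.09. H60c, a ligand of the receptor NKG2D in epidermis, was 117 ± 6.88 CPM in WT, 135 ± 6.68 in HET and 97.9 ± 28.6 in KO columns (adjusted p = 0.334 against WT). Cxadr, the receptor partner of JAML on these T cells, was 69.2 ± 3.39, 72.4 ± 13.2 and 95.8 ± 18.2 CPM (adjusted p = 0.107). Plxnb2 (log2 fold change 0.28) and Igf1 (0.47) had adjusted p of 0.239 and 0.190. Of the related butyrophilin and B7 genes 8 of 19 were tested and 0 passed, with a median of 0.21; the most abundant were Cd276 (-0.14), Vsir (0.43), Icosl (-0.39) and Btnl9 (0.57), with adjusted p of 0.178 to 0.606.

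Markers of the skin's cell types give the setting for these values. Of the 20 epidermal keratinocyte genes 0 passed the adjusted p in KO against WT. Their log2 fold changes ran from -0.55 to 0.58, with a median of 0.16. The most abundant, Krt10, Krt1, Dmkn and Krt5, had values of 0.23, 0.32, 0.27 and 0.03. Of 19 tested genes of late granular keratinocytes 1 rose and 0 fell: Ivl, the cornified envelope protein involucrin, went from 510 ± 38.5 to 866 ± 207 CPM (log2 fold change 0.76, adjusted p = 0.0231), but did not pass with only WT and KO columns fitted (0.127), with the keratinocyte sum as covariate (0.106) or in the first series alone (0.551). Lor, Asprv1, Hrnr and Flg, the most abundant of that list, had values of 0.08, -0.34, 0.21 and 0.70 and did not pass. Over the 19 genes the values ran from -2.26, which did not pass, to 0.76, with a median of 0.24. In Langerhans cell, dermal fibroblast, skeletal muscle, erythroid and thymus lists 0 genes passed in KO against WT, with medians of 0.05, -0.24, -0.10, 0.55 and 0.27. Cd24a, Epcam, Tgfbr1 and Csf1r led the first of these by level, and Tcf7, Foxn1, Cd1d1 and Ccl25 the last, of which Foxn1 and Ccl25 are genes of thymic epithelium rather than thymocytes and Foxn1 is also made by skin epithelium. The summed erythroid genes, led by Hbb-bs, Hbb-bt, Hba-a1 and Hba-a2, were 3106 to 9045 CPM in KO and 1652 to 5154 in WT columns. Fibroblast genes, led by Col3a1, Col1a1, Col1a2 and Dcn, summed to 14897 to 29900 in KO and 22815 to 36991 in WT columns, and muscle genes, led by Acta1, Myh8, Mylpf and Ckm, to 8964 to 17484 and 11570 to 20102. The part of these cell types in the Skint differences was not tested.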

How the data were processed

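RNA-Seq was done on poly(A) RNA of dorsal skin with a directional library kit. The deposited table holds raw counts, whole numbers per gene symbol for 24 libraries. The submitters' processing notes name STAR and HTSeq, without versions, and hg19, a human build, although the symbols are mouse; the mouse build, the annotation, the use of strand and the handling of reads that map to several places are not given in the sources used here, so counts of near-identical genes are uncertain. Libraries held total counts of 8.98 M to 20.96 M, which limits precision mainly for Skint11; no deposited column was left without a sample.

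Libraries with the same title number and genotype were summed to 15 columns. Genes were filtered with filterByExpr, scaled by TMM and tested with edgeR 4.0.16 (R 4.3.3; quasi-likelihood, robust, 3 genotypes in 1 fit), with Benjamini-Hochberg adjustment over 17094 genes; the functions were tested on simulated data. Calls used the thresholds of the study (adjusted p up to 0.1, log2 fold change of at least 1 in size). Each SE was derived from the F statistic. Single sums were compared on log2(CPM + 1) by exact permutation, two-sided; correlations used 100000 permutations within genotypes. Lengths and order came from GENCODE vM21, promoters from RefSeq (GRCm38.p6), alignments from Biopython (match 2, mismatch -3, gap -5 and -2). All 10 Skint genes are named; of each list, the 4 highest by mean CPM and any gene with an adjusted p of 0.1 or below; and the 5 genes most like Skint11. The members, lists and tests were chosen with earlier results of these data known. DESeq2 1.42.0 and limma-voom (limma 3.58.1) were among the alternatives; levels and correlations without WT replicate 2 were added after seeing the data. Intervals cover the spread of these columns only.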

Additional observations from a re-analysis of the deposited data

Results flagged for a closer look

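Of 54 groups of 5 columns looked at, 4 held a column far from the other 4; chance gives about 1 in 20. Skint9 in WT replicate 4 was 67.2 CPM, against 150 to 168 in the other WT columns, and its share of all Skint counts there was 14.2%, against 27.8 to 33.2%. Skint5 in HET replicate 2 was 25 CPM, against 14.8 to 16.3. The keratinocyte sum in KO replicate 2 was 117720 CPM, against 83382 to 91164 in the other KO columns, and that column was also the highest KO column for Skint1, Skint2, Skint3, Skint4, Skint6, Skint7, Skint10 and Skint11.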

How the results depend on the processing

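No paired analysis was possible because the title numbers are not shared between genotypes. Counts moved with the setting. Skint11 is left out here because it chose the list. In KO against WT 1 of the 9 other members passed the adjusted p (Skint7, against 1.15% of all genes). In KO against HET 1 of the 9 passed (Skint10, against 0.333%). Of 30 other settings, Skint7 missed the limit against WT in 16 and Skint10 missed it against HET in 19. Skint10 passed against WT in 9 of the 30, and Skint7 passed against HET in 5. The number of called genes in KO against WT (55) was 3 in the first series alone, 138 with the libraries of WT replicate 2 kept apart, 221 with 24 separate libraries, 190 by DESeq2, 100 by limma-voom, 15 with only the 2 genotypes fitted, 25 at an adjusted p of 0.05 and 29 with the Y-linked sum as covariate. In KO against HET (31) it was 3 in the first series, 179 with 24 libraries, 126 by DESeq2, 20 among genes with a mean of at least 50 counts, 3 with only the 2 genotypes, 10 at an adjusted p of 0.05 and 52 with the keratinocyte sum as covariate. Leaving out 1 replicate gave 20 (without WT replicate 2) to 240 (without KO replicate 5) calls, 10 to 113 calls, and, in HET against WT, 0 to 1. The split of 23 higher and 32 lower calls in KO against WT became 7 and 54 with the keratinocyte covariate, 24 and 76 by limma-voom, 99 and 91 by DESeq2 and 126 and 95 with 24 libraries. The cause was not tested.

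Members near 0 changed sign. For Skint1 in KO against WT the log2 fold change was -0.060 in the second series alone, -0.049 with total counts, -0.051 by limma-voom, -0.0051 with a mean of at least 50 counts, -0.023 with the Y-linked and -0.17 with the keratinocyte covariate, and -0.20 to 0.11 with 1 replicate left out. In KO against HET it was -0.026 with total counts, -0.034 by limma-voom, -0.18 with the keratinocyte covariate and -0.19 to 0.12 with 1 replicate left out. Skint3 in KO against WT was -0.13 with the keratinocyte covariate and -0.030 to 0.18 with 1 left out. In HET against WT, Skint1 was 0.065 in the first series, 0.0042 with the keratinocyte covariate and -0.042 to 0.019 with 1 left out. Skint4 was 0.019 with the libraries of WT replicate 2 kept apart, 0.024 by limma-voom, 0.0012 with RLE factors, 0.0015 by DESeq2, 0.062 with the keratinocyte and 0.0031 with the library-number covariate, and -0.11 to 0.13 with 1 left out. Skint11 was -0.48 in the first series, -0.021 with 24 libraries, -0.042 by limma-voom, -0.087 with the Y-linked and -0.0046 with the library-number covariate, and -0.33 to 0.22 with 1 left out. Skint8 was -0.12 in the first series and -0.0031 to 0.30 with 1 left out, Skint5 -0.091 to 0.16 and Skint7 -0.22 to 0.063.

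With 1 replicate left out, the keratinocyte sum differed by 0.16 to 0.30 (KO against WT), 0.19 to 0.32 (KO against HET) and -0.082 to 0.027 (HET against WT), and the T cell receptor sum by -0.10 to 0.13 (KO against HET). Of the Skint11 pairs, 0 passed in the second series alone. Skint11 in KO against WT ranged from 1.48 to 2.17 in the 29 alternatives that gave it a value. It was chosen for its higher KO level in these same libraries, so the kept direction is a description and no support. Its low counts limit what can be said of differences between control genotypes.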
